A study of Mus musculus with 7 samples.

Results

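The 10 genes described here are Ccr7, Fscn1, Cd83, Nr4a3, Ccl22, Ccl17, Relb, Socs2, Traf1 and Birc3, a set associated with the maturation of migratory dendritic cells. They were picked by symbol, and all 10 are listed both among the 15155 genes of the donor table and among the 23737 genes of the host table. The choice was made with their cluster levels in these data in view, so levels between clusters are given as a description and carry no test. The cells came from the epidermis of male CD45.2 C57BL/6 mice 3 weeks after lethal irradiation and bone marrow transplantation (BMT) from female CD45.1 C57BL/6 donors. Donor CD11b+MHCII+ myeloid cells formed 3 libraries labelled BMT (replicates 1 to 3) and 1 whose label adds T cells to the transplant (BMT + T cells). Host CD11b+MHCII+ cells formed 1 library and CD45neg keratinocytes 2 libraries, 1 under each label. The design text of the series gives every recipient CD4 T cells together with Matahari CD8 T cells, which the labels state for the BMT + T cells libraries alone, so labels are compared here and not treatments. The study pooled mice before sorting, so a library is not an animal, and the gate leaves out cells without CD11b or MHCII.

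Langerhans cells are the antigen-presenting cells of the epidermis. After transplantation they can be replaced by monocyte-derived Langerhans cells (mLC) of the donor. When a dendritic cell or Langerhans cell matures, it is known to lose contact with its neighbours, to raise Ccr7 and to follow the chemokines Ccl19 and Ccl21 through lymphatic vessels to the lymph node. The maturation programme is also known for surface proteins that steady the presentation of antigen, for chemokines that draw CCR4-bearing T cells, and for genes of NF-κB signalling and survival.

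Levels are unique molecular identifiers (UMIs) of a gene per 10000 UMIs of the cell (CP10K), averaged over the cells of a library and cluster, and they are compared within a gene and not between genes. Donor libraries held 226 to 8382 cells (11899 in all) at medians of 7021.5 to 13387 UMIs per cell, and the host library held 781 cells at a median of 4376 UMIs. The cluster the authors named Mig_mLC (migrating mLC) held 91 cells in BMT replicate 1, 766 in BMT replicate 2, 2 in BMT replicate 3 and 16 in the BMT + T cells library. Means ± SD over libraries therefore rest on replicates 1 and 2 for Mig_mLC (n = 2), and on libraries with at least 20 cells elsewhere. In all, 32 cell barcodes occurred in 2 of the 7 libraries, and 4 of them belonged to Mig_mLC cells.

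The label of the cluster was set against markers of other cells. Mig_mLC kept the Langerhans cell gene Mfge8 at 32.9 and 45.6 CP10K in BMT replicates 1 and 2, against 32.6 and 56.8 CP10K in resident mLC (Res_mLC). Cd207, which encodes langerin, stood at 0.472 and 0.790 CP10K against 1.31 and 5.50 CP10K, and Epcam, an epithelial adhesion gene, at 7.94 and 4.65 CP10K against 26.0 and 18.7 CP10K. The 8 markers of conventional dendritic cells summed to 2.27, 2.54 and 4.799 CP10K in the Mig_mLC cells of BMT replicate 1, BMT replicate 2 and BMT + T cells, with no marker of the 8 at 0 in replicates 1 and 2 and 1, Clec9a, at 0 in the BMT + T cells library. The same markers summed to 0.925, 0.902 and 0.507 CP10K in resident mLC of these libraries. Their sum was thus higher in Mig_mLC together with the 10 genes, and their part in the results was not tested. Not every marker was higher. In BMT + T cells, Xcr1 was at 0.0222 CP10K in Mig_mLC against 0.0319 in resident mLC, and Clec9a was at 0 in both. Summed T cell markers (7 of 8 genes listed) were at 0.128 to 0.716 CP10K in these libraries and summed keratinocyte markers (5 of 6 listed) at 0.157 to 0.870 CP10K. The 2 Mig_mLC cells of BMT replicate 3 had no UMI of Ccr7, Fscn1, Ccl22, Cd207 or Mfge8 and held 8.85 CP10K of Cd209a and 6.72 CP10K of Clec10a, so they went against the label and entered no mean.

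Ccr7, the receptor that guides mature dendritic cells to the lymph node, was high in Mig_mLC and low in the other donor clusters. Its level in Mig_mLC was 8.69 CP10K in BMT replicate 1, 9.13 CP10K in BMT replicate 2 and 4.70 CP10K in the 16 cells from BMT + T cells. A UMI of Ccr7 was present in 62.6%, 54.0% and 56.2% of these cells, with exact 95% intervals of 51.9 to 72.6%, 50.4 to 57.6% and 29.9 to 80.2%. Both BMT libraries lay close together, and the small BMT + T cells sample lay lower in level but not in the share of cells. In the other 8 clusters the mean level ran from 0.00571 to 0.185 CP10K and the share of cells with a UMI did not exceed 6.67% in any library. The second highest cluster, S100a_Mono, reached 20 cells in BMT replicate 2 alone and had Ccr7 in 3.70% of them. This cluster also held neutrophil markers at a sum of 50.7 CP10K in that library (Retnlg 41.7, Csf3r 5.13 and Cxcr2 3.89 CP10K, 3 of 4 markers listed), against 0.299 to 1.10 CP10K in its other clusters, and their part in the S100a_Mono levels was not tested. Resident mLC of BMT replicate 1 had no Ccr7 UMI, so against a floor of 3 counts Mig_mLC was at least 322-fold higher by summed counts in that library, and in replicate 2 the level was 6.23 higher on the log2(CP10K + 0.1) scale.

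Fscn1 encodes fascin, the actin-bundling protein of dendrites and moving cells, and it had the same shape. Mig_mLC held 5.32, 4.93 and 5.59 CP10K in BMT replicate 1, BMT replicate 2 and BMT + T cells. All 3 libraries were within a narrow range, although fewer cells than for Ccr7 had a UMI, 34.1%, 29.4% and 31.2%. No other cluster passed 0.0568 CP10K in any library with at least 20 cells. Resident mLC had no Fscn1 UMI in BMT replicate 1, which makes Mig_mLC at least 157-fold higher there by summed counts against the floor of 3 counts. In replicate 2 the difference was 5.45 on the log2 scale.

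Cd83 encodes a surface protein that keeps MHC class II and CD86 on mature dendritic cells, and Nr4a3 encodes an orphan nuclear receptor known for its part in the migration of dendritic cells. Cd83 was at 6.38, 6.29 and 6.51 CP10K in Mig_mLC of BMT replicate 1, BMT replicate 2 and BMT + T cells, where 87.9%, 80.8% and 68.8% of cells had a UMI. Nr4a3 was at 7.76, 8.83 and 6.97 CP10K, with a UMI in 78.0%, 80.3% and 75% of cells. Both genes were detected in most Mig_mLC cells of every one of these libraries. Outside Mig_mLC, Cd83 had UMIs in every cluster and library with at least 20 cells, whereas Nr4a3 had none in 1 library each of Mono, Hmox1_Mono and Cyc_mLC. Cd83 lay between 0.147 and 0.621 CP10K in the other clusters by their means, led by ISG_Mono at 0.621 ± 0.177 CP10K (n = 3), and the ranges over libraries of ISG_Mono, MC, Mono and Mrc1_Mac overlapped one after the other. Nr4a3 lay between 0.0410 and 0.854 CP10K, with S100a_Mono highest in its 1 library and MC next at 0.271 ± 0.0354 CP10K (n = 3). Mig_mLC exceeded resident mLC by 4.17 and 3.95 (Cd83) and by 5.50 and 5.16 (Nr4a3) on the log2 scale in replicates 1 and 2.

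Ccl22 and Ccl17 are neighbouring chemokine genes on chromosome 8 whose proteins both bind CCR4, a receptor of type 2 helper, regulatory and skin-homing T cells. Their distribution over the clusters differed. Ccl22 was at 27.0, 35.6 and 42.7 CP10K in Mig_mLC of BMT replicate 1, BMT replicate 2 and BMT + T cells. MC, the monocyte-derived cluster next in order, held 0.663, 1.42 and 1.33 CP10K in the same libraries. The libraries of the 2 clusters were far from overlapping. Ccl17 was at 74.1, 64.1 and 36.7 CP10K in Mig_mLC and at 75.1, 79.9 and 36.5 CP10K in MC. Here the 2 clusters overlapped, and both were lower in the BMT + T cells library. The difference of Mig_mLC minus MC on the log2 scale was 5.15 and 4.56 for Ccl22 and -0.02 and -0.32 for Ccl17 in replicates 1 and 2.

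Ccl17 was also found in most other donor clusters. After MC came S100a_Mono at 13.5 CP10K (1 library), ISG_Mono at 10.3 ± 3.78 (n = 3), Cyc_mLC at 8.50 ± 4.76 (n = 3), Mrc1_Mac at 6.87 ± 6.39 (n = 4) and Mono at 6.66 ± 5.77 CP10K (n = 4). The ranges over libraries of neighbours from ISG_Mono to Mono overlapped. Resident mLC were lowest at 0.736 ± 0.972 CP10K (n = 4). The share of resident mLC with a Ccl17 UMI ran from 0% in BMT replicate 3 to 44.3% in BMT replicate 2. That share in keratinocytes, which were sorted and captured apart, was 0.0353% (BMT) and 0.0772% (BMT + T cells), their median depth being 8895.5 and 8834 UMIs. Free RNA in the donor droplets and its part in these low levels was not tested. In the same cell the pair also parted: 60.4%, 62.4% and 50% of MC of BMT replicate 1, BMT replicate 2 and BMT + T cells had Ccl17 without Ccl22, against 8.79%, 16.2% and 0% of Mig_mLC (0 of 16 cells, which allows a share of up to 18.8%). Both chemokines were found together in 65.9%, 70.0% and 62.5% of Mig_mLC and in 26.9%, 32.7% and 23.3% of MC.

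The stretches before the start sites of Ccl22, Ccl17 and Fscn1 are shown because these genes give the contrast of the set, with Ccl22 and Fscn1 led by Mig_mLC and Ccl17 shared with MC. They are the 250 bases upstream of the start that the RefSeq promoter set uses, GRCm38.p6, written 5′ to 3′ on the strand of the gene. For Ccl22 and Fscn1 this is the listed start of the gene, but for Ccl17 it is base 94810453, which lies 1073 bases inside the listed gene (chr8:94809380-94812038). Capitals mark matches, on either strand, to a relaxed form of the κB motif (3 G, 5 free bases, 2 C).
Ccl22, chr8:94745434-94745683, plus strand: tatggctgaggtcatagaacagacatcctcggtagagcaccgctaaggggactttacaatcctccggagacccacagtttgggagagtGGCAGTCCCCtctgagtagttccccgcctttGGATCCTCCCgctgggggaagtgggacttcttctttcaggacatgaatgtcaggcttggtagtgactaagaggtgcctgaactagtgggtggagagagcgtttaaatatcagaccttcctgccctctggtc
Ccl17, chr8:94810203-94810452, plus strand: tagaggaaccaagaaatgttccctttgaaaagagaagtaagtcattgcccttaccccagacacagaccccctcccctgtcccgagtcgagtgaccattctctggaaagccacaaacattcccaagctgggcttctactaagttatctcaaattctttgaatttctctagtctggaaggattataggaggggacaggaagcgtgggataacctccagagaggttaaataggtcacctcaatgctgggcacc
Fscn1, chr5:142960105-142960354, plus strand: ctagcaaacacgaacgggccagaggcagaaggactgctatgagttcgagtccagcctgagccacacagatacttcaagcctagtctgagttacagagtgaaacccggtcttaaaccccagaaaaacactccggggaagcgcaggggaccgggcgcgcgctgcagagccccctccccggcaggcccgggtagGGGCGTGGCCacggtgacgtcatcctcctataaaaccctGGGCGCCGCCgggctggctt
RefSeq promoters were matched for 6 of the 10 genes (Fscn1, Nr4a3, Ccl22, Ccl17, Traf1 and Birc3), each from 250 bases before to 50 bases after the start. The stricter κB consensus was found in 0 of these 6 and in 4.51% of all 32851 promoters of the same length, and the NBRE, the element bound by NR4A receptors (AAAGGTCA, both strands), in 0 of 6 and in 1.51%. The relaxed form was in 3 of 6, those of Fscn1, Ccl22 and Birc3, and in 50.8% of all promoters. In Ccl22 the matches lay at positions -162 to -153 and -131 to -122 from the start, and in Fscn1 at -59 to -50, -20 to -11 and 17 to 26. Matches are descriptions of the letters and not binding sites.

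Relb encodes the subunit of non-canonical NF-κB that mature dendritic cells depend on, Traf1 an adaptor of TNF receptors, and Birc3 (cIAP2) a ubiquitin ligase that restrains cell death and non-canonical NF-κB. All 3 were found in every donor cluster. Relb was at 2.32, 1.63 and 2.56 CP10K in Mig_mLC of BMT replicate 1, BMT replicate 2 and BMT + T cells, and at 0.303 to 0.684 CP10K by the means of the other clusters. Traf1 was at 3.70, 2.11 and 4.55 CP10K, and elsewhere at 0.204 to 0.997 CP10K. For these 2 genes each Mig_mLC library was above every other library and cluster value (1.00 CP10K at most for Relb, 1.70 for Traf1), although by less than for the genes above. Mig_mLC exceeded resident mLC by 2.17 and 2.13 (Relb) and by 3.17 and 2.90 (Traf1) on the log2 scale in replicates 1 and 2.

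Birc3 did not single out Mig_mLC. Its level there was 0.945, 0.985 and 0.713 CP10K in the 3 libraries, with S100a_Mono at 1.18 CP10K in its 1 library and Mono at 0.811 ± 0.416 CP10K (n = 4). The ranges over libraries of Mig_mLC and Mono overlapped, as did those of every neighbour in the order from Mono down to Cyc_mLC at 0.229 ± 0.135 CP10K (n = 3). Socs2, an inhibitor of cytokine and growth hormone signalling that mature dendritic cells are known to express, was the faintest of the set. It stood at 0.269, 0.465 and 0.189 CP10K in Mig_mLC and was found in 27.5%, 24.8% and 18.8% of cells. Mrc1_Mac followed at 0.180 ± 0.214 CP10K (n = 4), with its highest library, BMT replicate 3 at 0.485 CP10K, above all of Mig_mLC. Over resident mLC, Mig_mLC was higher by 1.60 and 2.15 (Socs2) and by 0.87 and 1.24 (Birc3) on the log2 scale.

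**Figure D1:**
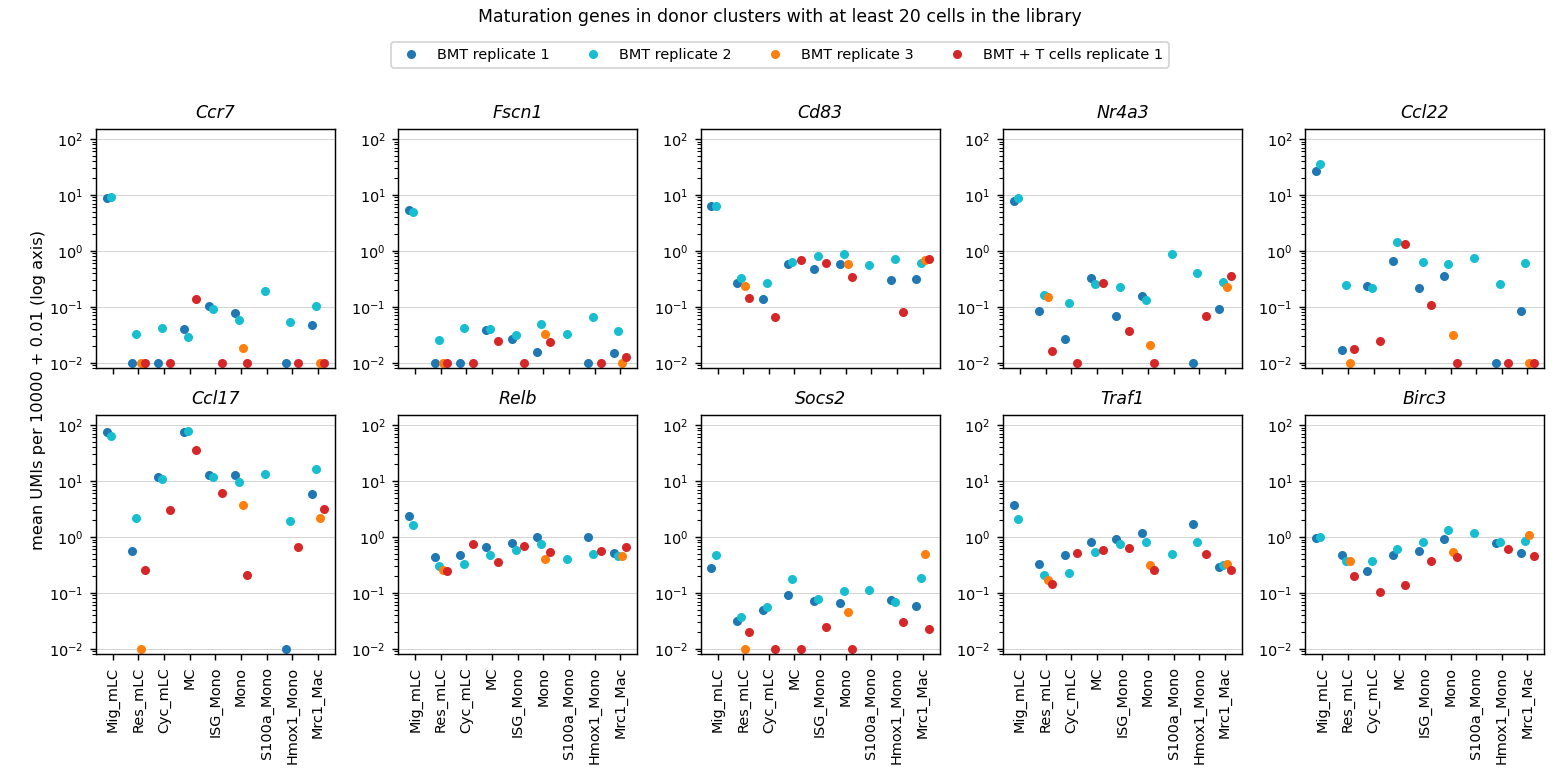
Mean UMIs per 10000 plus 0.01 (log axis) of each of the 10 genes in each donor cluster, 1 point per library with at least 20 cells of the cluster. Ccr7, Fscn1 and Ccl22 stand far above all other clusters in Mig_mLC, Ccl17 is as high in MC (75.1 and 79.9 CP10K in BMT replicates 1 and 2), and Birc3 is highest in S100a_Mono by its 1 library (1.18 CP10K) and not in Mig_mLC.

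Of the 10 genes, 8 were over 4-fold higher in Mig_mLC than in resident mLC in both BMT replicates 1 and 2. The fold was taken on the log2(CP10K + 0.1) scale, where Socs2 and Birc3 did not pass. In resident mLC, Socs2 was at 0.0217 and 0.0275 CP10K, under the 0.1 added, and it passed with 0.01 added instead. Of all 7177 genes measured in these clusters, 1.39% passed the same fold. The median difference was 4.70 on the log2 scale (4.70 also with Ccr7 and Fscn1 at their bounds in replicate 1) against -0.31 for all genes. The choice of the genes used this contrast, so nothing is read from these counts. Against MC, 5 of the 10 (Ccr7, Fscn1, Cd83, Nr4a3 and Ccl22) passed, beside 0.489% of 6744 genes. Over all donor clusters, 7 of the 10 had both Mig_mLC libraries above every other library and cluster, the exceptions being Ccl17, Socs2 and Birc3, beside 2.19% of 7267 genes that averaged 0.1 CP10K or more (Socs2 was under that mean).

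The genes fell into sets by their profile over the 27 library and cluster means with at least 20 cells, which share libraries and cells and are not independent points. Ccr7 and Fscn1 were most alike (Pearson r = 0.98), Nr4a3 and Ccl22 were each most like Ccr7 (0.91 and 0.90), and Cd83 was most like Nr4a3 (0.88). Relb and Traf1 were most like each other (0.90), Ccl17 was most like Ccl22 (0.76), and Birc3 and Ccl17 were the least alike pair of the set (0.19). Among genes outside the set, Fscn1 was most like Cacnb3 (0.99), a calcium channel subunit, as was Ccr7 (0.98), while Relb and Traf1 were both most like Mir155hg (0.82 and 0.86), the host gene of miR-155. Ccl17 was most like Bcl2a1a (0.87), a survival gene of the Bcl2 family with near-identical copies, and Birc3 most like Bcl3 (0.89), an atypical IκB protein. The 10 genes closest to the mean profile of the set were Rel (0.93), Apol7c, Ccnd2, Tmem131, Tmem123, Cacnb3, Il12b, Stat5a, Etv3 and Satb1 (0.86). Rel, the NF-κB subunit c-Rel, was at 6.81 and 7.09 CP10K in Mig_mLC of replicates 1 and 2 and at 1.45 CP10K on average over the other points, and Apol7c, an apolipoprotein L gene of dendritic cells, at 3.54 and 4.21 against 0.0531 CP10K.

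Single cells were then scored by how many of the 10 genes had at least 1 UMI. At least 5 were found in 73 of 91 Mig_mLC cells of BMT replicate 1 (80.2%, exact 95% interval 70.6 to 87.8%), in 561 of 766 of BMT replicate 2 (73.2%, 70.0 to 76.3%) and in 12 of 16 of the BMT + T cells library (75%, 47.6 to 92.7%). Outside Mig_mLC the share was 11.7%, 6.17%, 1.34% and 2.42% in BMT replicates 1 to 3 and BMT + T cells. The mean over libraries was 76.7 ± 4.94% (n = 2) inside and 5.40 ± 4.67% (n = 4) outside, and without BMT replicate 1 the latter was 3.31%. Depth moved with these counts, since cells outside with at least 5 of the genes had a median of 18048.5 UMIs in BMT replicate 1 and 11010 in BMT replicate 2, and cells with fewer had 12761 and 6659. With every cell thinned to 2000 UMIs, which left out 8 of 91 and 37 of 766 Mig_mLC cells and 174 of 2481 and 733 of 7616 others, the shares were 51.8% and 42.5% inside and 0.433% and 0.320% outside in replicates 1 and 2.

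The cells outside Mig_mLC that held at least 5 genes were not spread evenly. There were 780 of them among 1427 such donor cells, and 344 of these were MC and 215 ISG_Mono. MC reached 25.4%, 14.7% and 20% in BMT replicate 1, BMT replicate 2 and BMT + T cells, and ISG_Mono 11.4%, 9.44% and 10.3%. After thinning to 2000 UMIs, 10 and 22 cells outside Mig_mLC held at least 5 genes in BMT replicates 1 and 2, too few to order the clusters. MC were at 0.284% and 0.380%, ISG_Mono at 0.496% and 0.602% and Mono at 1.25% and 0.759%. S100a_Mono were at 0.855% in replicate 2. In BMT + T cells, 7.41% of the 27 thinned MC and 0% of ISG_Mono and Mono held at least 5 genes. Only 2 thinned cells outside Mig_mLC did so in that library. Before thinning, resident mLC were at 0.952%, 1.45% and 0% (0 of 320 cells), below MC in every one of these libraries. Which genes made up the count differed as well: of the 780 cells outside, 97.1% had Ccl17, 80.1% Traf1, 79.9% Relb and 77.2% Birc3, but 11.8% had Ccr7 and 6.54% Fscn1. Of the 647 such cells inside Mig_mLC, 94.1% had Cd83, 91.8% Ccl17, 91.3% Ccl22 and 90.9% Nr4a3, with Ccr7 in 70.8% and Fscn1 in 39.4%. These shares pool the libraries, and BMT replicate 2 gave 470 of the 780 and 561 of the 647 cells. Outside, Relb was in 92.1% and 71.7% and Traf1 in 92.4% and 72.3% of such cells in BMT replicates 1 and 2. Ccr7 was in 14.8% and 10% and Fscn1 in 5.52% and 7.02% of them. At a stricter count of at least 8 genes, 277 of 301 donor cells (92.0%) were Mig_mLC, 230 of them from BMT replicate 2. MC with 14 cells and ISG_Mono with 7 held most of the rest.

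**Figure D2:**
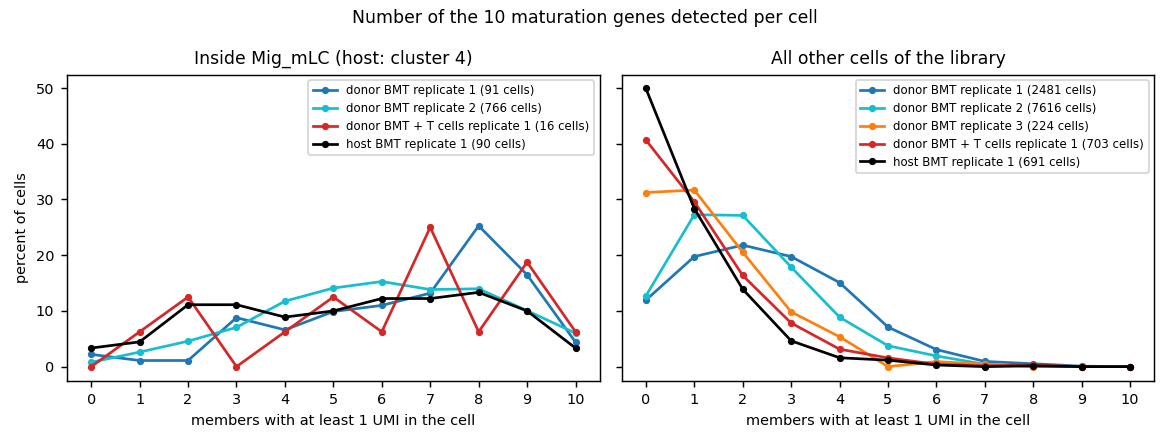
Percent of cells (vertical axis) by the number of the 10 genes with at least 1 UMI (horizontal axis), for Mig_mLC or host cluster 4 (left) and all other cells of each library (right), 1 line per library. Mig_mLC and host cluster 4 are broad around medians of 6 or 7 genes and other cells lie at medians of 1 or 2. The 2 Mig_mLC cells of BMT replicate 3 are not drawn.

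Pairs of the genes were also counted in the same cell, after thinning to 2000 UMIs. Inside Mig_mLC, 35 of 45 pairs had a log2 odds ratio above 0 in both BMT replicates 1 and 2. No share over pairs of other genes stands beside this count, so it is not read as a trait of the set. Below 0 in both were 2 pairs, Ccl17 with Socs2 and Ccl17 with Traf1, with values nearest 0 of -0.053 and -0.0025. The highest were Fscn1 with Ccl22 (3.27 in replicate 1 and 4.02 in replicate 2), Ccr7 with Fscn1 (2.42 in replicate 1 and 3.58 in replicate 2) and Ccr7 with Ccl22 (2.61 and 3.03). Outside Mig_mLC, 40 of the 45 pairs were above 0 in both libraries and none below, with a median log2 odds ratio of 0.76 against 0.92 inside. For Ccr7 with Ccl22 inside Mig_mLC, 285 of 729 cells in replicate 2 held both, of 325 with Ccr7 and 472 with Ccl22. Outside Mig_mLC too few cells held both Ccr7 and Fscn1 for the ratio to be read, with 1 of 2307 and 0 of 6883 thinned cells positive for both in replicates 1 and 2. This pair is still among the 40, with log2 odds ratios of 0.88 to 4.85. The count of 40 and the median of 0.76 thus include ratios that cannot be read, and they are not compared with those inside.

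Inside Mig_mLC the genes were not at one level, and most of them followed the latent time that the authors derived from RNA velocity, which was computed from the transcripts of these same cells and so shares them. The cells of each library were divided into tertiles of latent time. Ccr7 went from 3.82 CP10K in the earliest tertile to 16.2 in the latest in BMT replicate 1 and from 1.43 to 19.4 CP10K in BMT replicate 2. Fscn1 went from 1.40 to 13.3 and from 0.403 to 13.003 CP10K. Ccl22 went from 6.45 to 48.7 and from 8.03 to 77.0 CP10K. Each of these 3 genes was higher in the latest tertile in both libraries. Cd83 (4.94 to 8.14 and 2.53 to 9.60 CP10K) and Nr4a3 (3.75 to 12.1 and 3.65 to 13.2 CP10K) were higher there too, as were Relb, Socs2 and Traf1. Ccl17 was already present in 73.3% and 83.1% of cells of the earliest tertile, and its level went from 75.9 to 58.9 CP10K in replicate 1 and from 51.8 to 69.0 CP10K in replicate 2, so the libraries differed in direction, as they did for Birc3. Median depth was lower in the latest tertile, at 11471 against 15180.5 UMIs and 6284 against 8812 UMIs. Spearman correlations with latent time across cells were 0.38 and 0.66 for Ccr7 (91 and 766 cells), 0.40 and 0.65 for Ccl22, -0.10 and 0.13 for Ccl17 and -0.21 and 0.08 for Birc3.

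**Figure D3:**
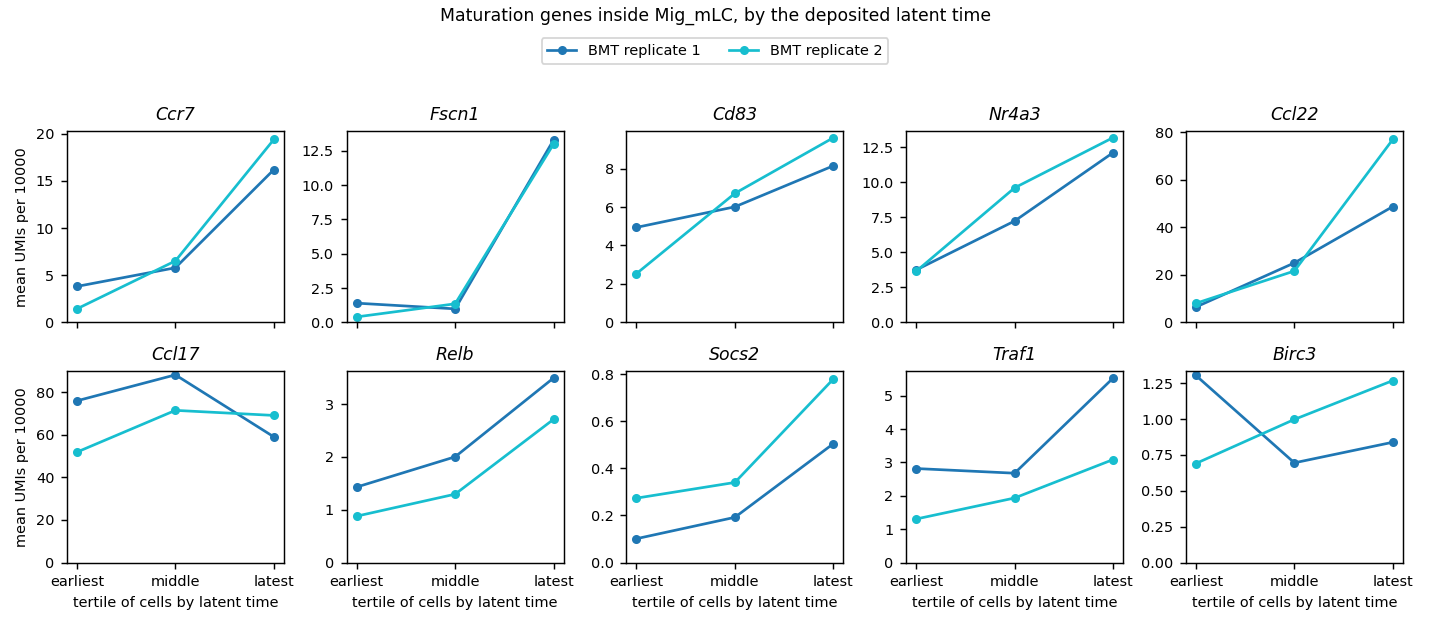
Mean UMIs per 10000 (linear axis from 0, its own scale for each gene) in the earliest, middle and latest tertile of Mig_mLC cells by deposited latent time, 1 line for each of BMT replicates 1 and 2. Ccr7, Fscn1 and Ccl22 are highest in the latest tertile in both libraries, where Fscn1 is at 13.3 and 13.003 CP10K, and Ccl17 is not.

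Genes outside the set also varied with the number of the 10 genes that a Mig_mLC cell held. In BMT replicate 2, Mrc1, the macrophage mannose receptor, was at 3.04 CP10K in the 61 cells with 0 to 2 of the genes and at 0.262 CP10K in the 123 cells with 9 or 10, and Cd209a, a marker of monocyte-derived and type 2 dendritic cells, at 3.23 and 0.00654 CP10K. Epcam was at 4.75 and 2.27 CP10K and Flt3, a receptor of dendritic cells, at 1.08 and 0.437 CP10K, while Mfge8 was at 11.3 and 48.3 CP10K. The median depth of the same 2 groups was 7167 and 11216 UMIs, and its part was not tested. Epcam was lower with more of the genes in BMT replicate 1 as well, at 11.8 CP10K in 14 cells with 3 or 4 and 3.77 CP10K in 19 cells with 9 or 10, but Mrc1 there did not exceed 0.572 CP10K in any of the groups.

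In the host library the 10 genes met in 1 cluster. Host cluster 4 (90 of 781 cells, median depth 5007.5 UMIs) had the highest level of each of them among the 7 host clusters. It also held Cd207 at 6.84 CP10K, Mfge8 at 22.4 CP10K and Epcam at 1.17 CP10K, and its summed T cell markers were at 0.501 CP10K. Summed keratinocyte markers were at 4.001 CP10K in cluster 4 (Krt14 2.75 CP10K) and at 6.38, 45.1 and 2.95 CP10K in clusters 1, 2 and 3, above the 0.157 to 0.870 CP10K of Mig_mLC in BMT replicates 1 and 2 and BMT + T cells, and their part in the host levels was not tested. Ccr7 was at 2.87 CP10K there (263 UMIs) and at 0.0972 CP10K in clusters 1 to 3, the 3 largest of the others (7 UMIs in 607 cells). Fscn1 was at 7.78 against 0.230 CP10K, Nr4a3 at 9.08 against 0.541 CP10K and Ccl22 at 12.7 against 0.195 CP10K. In each case 44.4% or more of cluster 4 cells had a UMI and at most 12.03% of the others had one. Cd83 (4.86 against 0.381 CP10K), Traf1 (2.68 against 0.170), Relb (2.79 against 0.657) and Birc3 (1.79 against 0.464) were higher in cluster 4 too, Relb and Birc3 by under 4-fold on the log2(CP10K + 0.1) scale. With 1 library there is no replicate and no test. Over 4-fold were 8 of the 10 genes, beside 1.45% of 10567 genes.

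Outside host cluster 4, Traf1 was next highest in cluster 6, at 2.14 CP10K in 23 cells that also held Cd3e at 41.0 CP10K and Cd3g at 75.4 CP10K, both T cell genes. Relb was found in 65.1% of the 43 cells of cluster 5, which held Krt5 at 130 CP10K and Krt14 at 205 CP10K, both keratinocyte genes. Ccr7, Ccl22 and Ccl17 had no UMI in cluster 5 or cluster 7. At least 5 of the 10 genes were found in 55 of 90 cells of cluster 4 (61.1%, exact 95% interval 50.3 to 71.2%) and in 11 of the 691 other host cells (1.59%, 0.797 to 2.83%). After thinning to 2000 UMIs the shares were 40.0% of 75 cells and 0% of 528 cells.

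Donor Mig_mLC and host cluster 4 are set side by side here with no test, since they come from separate libraries of different depth and mitochondrial share (medians of 1.39 to 2.02% in donor libraries and 14.04% in the host library), and donor and host cannot be told apart from library. Cd83, Nr4a3 and Traf1 were at similar levels, host over donor mean being 0.767, 1.10 and 0.922. The widest gaps were in Ccl17 and Socs2. Ccl17 was at 1.04 CP10K in host cluster 4, where 12 of 90 cells (13.3%) had a UMI, against 69.1 ± 7.10 CP10K in donor Mig_mLC (n = 2), and Socs2 was at 3.11 CP10K, found in 47.8% of cells, against 0.367 ± 0.139 CP10K. Ccr7 at 2.87 against 8.91 ± 0.315 CP10K and Ccl22 at 12.7 against 31.3 ± 6.09 CP10K were lower in the host cluster. By summed counts, in which deep cells weigh more, Ccl17 lay at 0.339 to 0.717 CP10K (exact 95% Poisson interval) and Socs2 at 2.34 to 3.20 CP10K in host cluster 4.

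**Figure D4:**
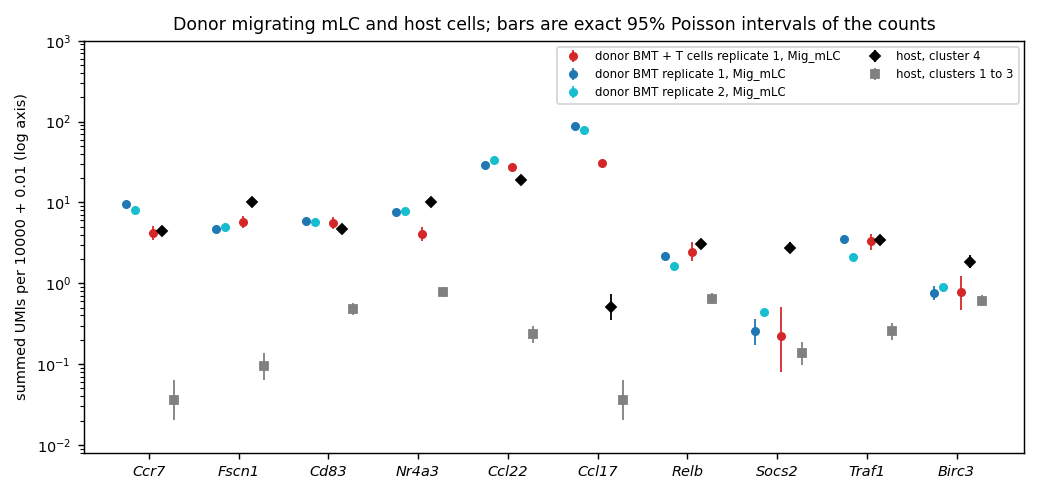
Summed UMIs per 10000 plus 0.01 (log axis) of the 10 genes in donor Mig_mLC of 3 libraries, in host cluster 4 (diamonds) and in host clusters 1 to 3 (squares), with exact 95% Poisson intervals that cover counting error alone. Ccl17 in host cluster 4 lies far below the donor cells, with an upper limit of 0.717 CP10K, and Socs2 lies above them.

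Other genes of the same pathways were counted from lists that leave out the 10 genes, by whether Mig_mLC was over 4-fold higher than resident mLC in both BMT replicates 1 and 2. Of all 7177 genes, 1.39% passed, 20.6% were higher by any amount in both libraries and 62.1% were lower in both, and since the lists were chosen with earlier results known, the counts are descriptions. Of the 17 NF-κB genes, 2 passed (Rel and Map3k14, the kinase NIK) and 14 were higher in both. Rel was at 6.81 and 7.09 against 1.52 and 1.44 CP10K, Map3k14 at 2.05 and 2.26 against 0.293 and 0.241, Nfkbia, the inhibitor IκBα, at 7.97 and 7.57 against 1.98 and 1.39, and Nfkb1 at 3.56 and 5.44 against 1.53 and 2.39 CP10K. Of 8 costimulation and checkpoint genes over the filter, 3 passed (Cd40, Cd274 and Cd200) and all 8 were higher in both. Cd40, the receptor through which helper T cells license dendritic cells, was at 7.89 and 7.98 against 0.756 and 1.14 CP10K, Cd274 (PD-L1) at 1.98 and 2.29 against 0.215 and 0.161, and Cd86 at 3.27 and 2.16 against 1.47 and 1.14 CP10K. Of 7 cytokine and secreted genes, 3 passed, and their levels in replicates 1 and 2 were 16.5 and 7.72 against 0.239 and 0.450 CP10K for Ccl5, 6.84 and 7.90 against 0.156 and 1.06 for Il1b, and 2.46 and 1.09 against 0 and 0.00477 for Il12b. Their levels in host cluster 4 were 0.220, 0.232 and 0.201 CP10K.

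Of the 10 genes listed under movement and the cytoskeleton, 5 passed (Marcks, Samsn1, Cacnb3, Tmem123 and Anxa3) and 9 were higher in both. The list is mixed, since Cacnb3 is a calcium channel subunit. Cacnb3 and Tmem123 are also among the 10 genes closest to the mean profile of the set. Marcks, an actin-linked membrane protein, was at 9.46 and 14.3 against 1.35 and 2.82 CP10K, Actb at 208.7 and 219.3 against 108 and 124, and Actg1 at 43.7 and 42.1 against 17.0 and 16.9. Of 10 paralogues none passed upward and 1, Birc5, passed downward, with Socs3 at 1.76 and 1.04 against 0.654 and 0.405 CP10K, Socs1 at 1.02 and 0.986 against 0.566 and 0.670, and Xiap at 0.584 and 1.10 against 1.23 and 1.46. Of 6 genes of survival and cell death none passed, 5 being higher in both, such as Cflar (c-FLIP) at 2.65 and 2.30 against 0.477 and 0.625 CP10K. These 5 include Fas and Bcl2l11 (Bim), which promote cell death. Bcl2, which restrains it, was lower in both, at 0.0612 and 0.148 against 0.341 and 0.350 CP10K. Mcl1 was at 7.31 and 9.03 against 4.29 and 4.89, and Bcl2l11 (Bim) at 0.619 and 1.19 against 0.274 and 0.704. Among the partners, 1 of 2 genes over the filter passed, Irf4, a transcription factor of dendritic cell migration, at 1.23 and 2.12 against 0.00945 and 0.170 CP10K, Batf3 was at 0.583 and 1.09 against 0.120 and 0.163, and Ccr4 was at 0 in both Mig_mLC libraries. Of the 6 Langerhans cell identity genes none was higher in both, 5 were lower in both and 1, Cd24a, was over 4-fold lower, and Cdh1 (E-cadherin) was at 2.38 and 4.59 against 7.79 and 13.5 CP10K. The median differences were 1.34 for NF-κB genes, 1.87 for costimulation, 2.19 for the mixed movement list and -1.72 for Langerhans cell identity, against -0.31 for all genes.

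The comparison that the choice of the genes did not use was that of the labels, BMT + T cells against BMT. It was made on the equal-weight mean of Mono, Mrc1_Mac and Res_mLC, the 3 clusters with at least 20 cells in all 4 donor libraries, and so it does not cover Mig_mLC. Of the 10 genes, 7 passed the filter of a mean of 0.1 CP10K, and Ccr7, Fscn1 and Socs2 did not. With limma, 0 of the 7 and 0 of 7345 genes (0%) were called at an adjusted p under 0.05 and more than a 2-fold difference, and 2 of the 7 and 316 of all genes had an unadjusted p under 0.05. No label gives the sorting experiment, but the short library names of BMT replicate 3 and BMT + T cells share 1 form and those of BMT replicates 1 and 2 another.

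Ccl17 was at 6.48, 9.36 and 1.98 CP10K in BMT replicates 1 to 3 and at 1.21 CP10K in the BMT + T cells library. The latter was the lowest of the 4, close to BMT replicate 3 and well below the other BMT libraries. The difference was -1.95 ± 0.74 on the log2 scale (SE, adjusted p = 0.98 with limma). Without BMT replicate 3 it was -2.59 ± 0.30 (adjusted p = 1.28e-06), and then 219 of 7253 genes (3.02%) were called. Lower genes were 116 of these (1.60%), and of the 7 tested genes of the set Ccl17 alone was called. Without BMT replicate 3 the 2 labels differ in the form of the library names too, so label and experiment cannot be told apart there. Traf1 had an adjusted p of 0.021 with limma there but a difference of -0.96, under 2-fold. With a term for these name forms, taken as the experiment, the Ccl17 difference was -0.66 ± 0.34 (adjusted p = 0.37), when 188 genes (2.56%; 124 lower, 1.69%) were called and none of the set. In Mono alone, Ccl17 was at 12.97, 9.74 and 3.72 CP10K in BMT replicates 1 to 3 and at 0.201 CP10K in BMT + T cells. The difference on the log2 scale was -4.72 in Mono, -0.89 in Mrc1_Mac and -0.60 in Res_mLC. It was widest in Mono, but each value rests on 1 BMT + T cells library, and Ccl17 was not called in any of these clusters.

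Birc3 was at 0.634, 0.849 and 0.654 CP10K in BMT replicates 1 to 3 and at 0.360 CP10K in the BMT + T cells library, below all 3 (difference -0.81 ± 0.28, adjusted p = 0.98). Ccl22 was at 0.142, 0.468 and 0.00704 CP10K and at 0.00260 CP10K (-1.26 ± 0.78, adjusted p = 0.98), and Traf1 at 0.594, 0.430 and 0.263 CP10K and at 0.211 CP10K (-0.72 ± 0.39, adjusted p = 0.98). For Ccl22 and Traf1, as for Ccl17, the BMT + T cells library was the lowest but next to BMT replicate 3. How often this library was lowest over all genes was not counted, so nothing is read from the order. Cd83, Nr4a3 and Relb lay within the range of the BMT libraries, with differences of -0.24, -0.10 and -0.02 and adjusted p of 0.99 to 1.00. Ccr7 had no UMI in the 3 clusters of the BMT + T cells library and was at 0.00272 to 0.0538 CP10K in the BMT libraries, too low in all 4 for a fold.

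**Figure D5:**
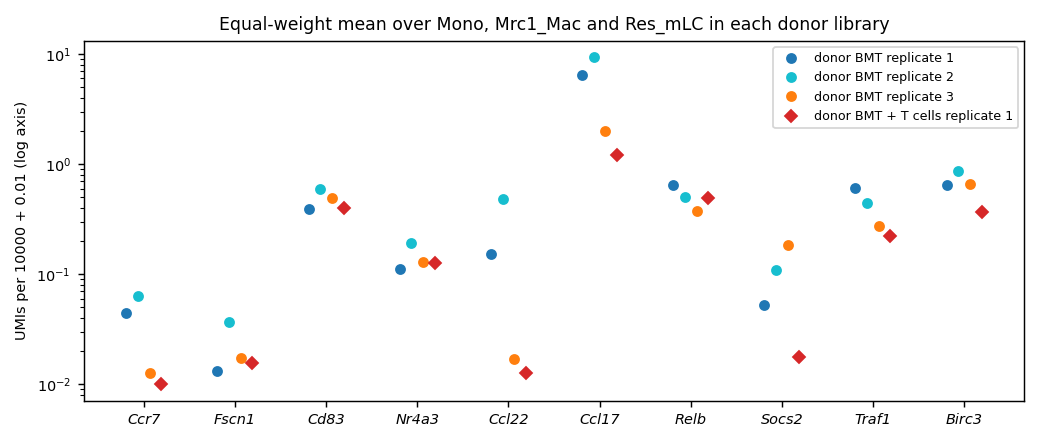
Equal-weight mean over Mono, Mrc1_Mac and Res_mLC in UMIs per 10000 plus 0.01 (log axis) for each of the 10 genes, 1 point per donor library and a diamond for BMT + T cells. Ccl17 is lowest with T cells at 1.21 CP10K, next to BMT replicate 3 at 1.98 CP10K, and Relb lies among the BMT libraries.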

How the data were processed

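The authors sorted cells from mouse epidermis, made libraries with a 10x 5′ kit, quantified them with kallisto and bustools (GRCm38 in the submitters' notes) and analysed them in Seurat. By their methods they removed likely doublets and cells with few genes or over 20% mitochondrial expression. Even so, 208 of 781 host cells in the table were above that share, as were 148 of 2572 donor cells of BMT replicate 1. In BMT replicates 2 and 3 and BMT + T cells, 17, 6 and 10 donor cells were above it. The clusters of the authors were used as deposited. The deposited expression values were natural log values, ln of 1 plus the UMIs per 10000 of the cell. Mitochondrial share was deposited in percent. Latent time was deposited as a fraction. Undoing the log gave whole UMIs for 100% of values within a tolerance of 0.001, so depth per cell was known (medians of 4376 to 13387 UMIs per library). Genes of the donor table covered 91.3% of UMIs in the median cell.

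Mean CP10K was taken over cells per library and cluster. The labels were compared with limma 3.58.1 in R 4.3.3 (trend, robust) on log2(CP10K + 0.1) for genes averaging 0.1 CP10K or more, with Benjamini-Hochberg adjustment and the lone BMT + T cells library assumed to vary like the others. Libraries are pools, so the spread measures libraries and not animals. Thinning drew 2000 UMIs per cell. Shares have Clopper-Pearson and sums Poisson intervals at 95%, which cover counting error only, and a count of 0 allows up to 3. Scripts were tested on simulated data. Alternatives were the pseudocount, filter, scale, cluster weights, cells needed, an experiment term and leaving out libraries. The 10 genes and all lists were chosen with earlier results of these data known. Of each list, the 3 genes highest in Mig_mLC are named, and the 10 genes most like the set. Other list genes past the fold, and Fas and Bcl2, were named after their values were seen. Other tools were pandas 2.3.3, SciPy 1.17.1 and matplotlib 3.10.9, with NumPy 2.4.6 under Python 3.11.15.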

Additional observations from a re-analysis of the deposited data

Results flagged for a closer look

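The keratinocyte libraries enter no comparison above, and 3 of the 10 genes were found in over 1% of their cells, above the limit that a count of 0 allows. Relb was found in 24.3% of 2836 keratinocytes labelled BMT and in 25.3% of 2590 labelled BMT + T cells. Birc3 was found in 8.15% and 8.69%, and Fscn1 in 2.86% and 2.66%. The other 7 genes were each found in under 1% of the cells of either library, Ccr7 in none, at median depths of 8895.5 and 8834 UMIs. There was 1 library per label, so the labels were not compared.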

How the results depend on the processing

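Of the counts and shares, 35 alternative values stayed with the main result, 6 moved, 4 were stronger and 1 was weaker. Some of the 35 were fixed in advance, where the library left out had too few Mig_mLC cells to enter the result. Of the alternative differences of single genes between Mig_mLC and resident mLC, 38 stayed within the SD over libraries and 32 moved. The number of genes called between labels, 0, became 188 with an experiment term, and over the leave-outs it ran from 0 to 219, the latter without BMT replicate 3. The number of the 10 genes called, 0, ran from 0 to 1 over the leave-outs (Ccl17, without BMT replicate 3). The label difference of Relb, -0.02, turned to 0.011 with the mean of natural logs and to 0.33 with the experiment term, and ran from -0.19 to 0.15 over the leave-outs. That of Nr4a3, -0.10, ran from -0.20 to 0.045 (without BMT replicate 2). None of these was called. That of Ccl17, -1.95, was -3.74 when at least 50 cells per cluster were asked for, which leaves out Mrc1_Mac. The number over 4-fold in Mig_mLC, 8, fell to 4 with the mean of natural logs (the cause was not tested). It was 6 with a pseudocount of 1, 9 with a pseudocount of 0.01 (Socs2 added) and 8 or 9 over the leave-outs. The share of Mig_mLC with at least 5 genes, 76.7%, became 47.2% after thinning, 59.5% with at least 2 UMIs, 85.9% with at least 4 genes and 64.7% with at least 6 (73.2 to 80.2% over the leave-outs). That of other donor cells, 5.40%, became 0.269% after thinning, 1.20% with at least 2 UMIs, 13.5% with at least 4 genes and 2.30% with at least 6 (3.31 to 6.76% over the leave-outs). Promoters with a match went from 0 to 3 with the relaxed κB motif. No paired analysis was possible because the titles number the donor libraries 1 to 4 across both labels and so share no number between them. The experiment term is a block by name form and not by replicate. With it the label difference is that of BMT + T cells and BMT replicate 3 alone, so its calls have no replicate behind them. Depth limits what can be said of Socs2, Fscn1 and Ccr7 outside Mig_mLC, and the 16 Mig_mLC cells of the BMT + T cells library limit any statement on labels there.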
